A study of Ovis aries with 17 samples.

Results

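*FLT3* and *CSF1R* encode growth factor receptors of the blood system, and their transcripts were followed here across 6 sheep cell subsets on 17 one-colour arrays. Each gene was read from the probe that carries its name in the array design, so the members are 2 of 11308 genes that passed the filter on dim probes and of 14330 genes before it. Both passed that filter. *FLT3* was well above background on all 17 arrays, and *CSF1R* on 11 of them.

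The subsets were spleen B lymphocytes (B, 4 arrays), blood plasmacytoid dendritic cells (pDC, 3), spleen macrophages (MP, 3), cultured dendritic cells obtained with GM-CSF (MoDC, 3), blood XCR1-negative dendritic cells (cDC2, 3) and blood XCR1-positive dendritic cells (cDC1, 1). The cells came from control sheep, with no age given in the sources used here. The methods describe the sheep listed for blood collection as females of the Prealpe breed. They give no separate breed or sex for the spleen cells and the cultured cells. MP were sorted by CD14 and B by an antibody to ruminant B cells. cDC2 and cDC1 were sorted as CD11c+ cells lacking B, CD11b, TCR1 and CD45RB stain, cDC2 being CADM1 low and CD172 high and cDC1 the reverse. The study describes its blood pDC as large, low density CD45RB+ cells without stain for B, CD11b, TCR1, CD8 or CD11c. RNA from different sheep was combined when 1 sort yielded too little, on arrays that the labels do not identify. An array can therefore stand for more than 1 animal, and p-values measure the spread between these samples. The names of the deposited files have the word pool for cDC1 and for cDC2 replicate 2, and mark the MoDC files with the letters BMDC. The study states that its sheep MoDC were grown from bone marrow.

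FLT3 is a receptor tyrosine kinase that binds FLT3 ligand on early progenitors and on dendritic cells, and the growth of pDC and conventional dendritic cells from the bone marrow depends on it. CSF1R is a related kinase that binds CSF1 and IL34 and supports the survival of monocytes and macrophages. Both belong to the same receptor family as KIT and the PDGF receptors, and a high level of one or the other is widely used to tell dendritic cells from macrophages. The study also used *FLT3*, measured by PCR, among the genes by which it checked its sorted cells, before the arrays were run.

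The probes that gave every value below are short stretches of each transcript, printed here because a level belongs to the stretch and not to the whole gene. Each has 60 bases, of which 27 are G or C (45%), so the probes did not differ in this respect. No part is in capitals, since no motif was searched.
FLT3: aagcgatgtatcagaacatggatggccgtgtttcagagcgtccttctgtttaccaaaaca
CSF1R: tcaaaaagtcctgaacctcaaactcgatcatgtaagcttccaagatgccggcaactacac

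Each sequence was printed on 5 spots of every array, and another probe with the same listed sequence as *FLT3* occupied 1 spot. Levels below are log2 of the background-corrected signal, taken relative to the 75th percentile on its array and then averaged over a probe's spots. A level of 0 is thus a signal equal to that percentile, and the levels of different probes are not set against each other. The 75th percentile itself ran from 194 units of brightness on MP replicate 2 to 688 on MoDC replicate 2, and 61.1% to 80.2% of the spots of an array were well above background. The SD over the spots of 1 array had a median of 0.07 for *FLT3* (highest 0.37) and 0.12 for *CSF1R* (highest 0.83, on pDC replicate 2, where the signal was not above background), against SDs between replicates of 0.13 to 0.77 and 0.33 to 1.45. The single spot read within 0.25 of the 5-spot *FLT3* level on all 17 arrays, with a median difference of 0.03. Markers of B and cDC1 set their subset apart, whereas *CD14*, the macrophage marker measured besides *CSF1R*, and *TCF4*, that of pDC, did not. *CR2*, of B cells, was 4.2 to 4.25 on the B arrays and at most -0.53 elsewhere, and *XCR1* was 2.61 on the cDC1 array and at most -1.58 elsewhere. *CD14* was 5.29 to 6.84 in MP, but also 5.87 to 6.75 in MoDC, 3.58 to 3.69 in cDC2 and 3.02 in cDC1, against -1.52 to 0.15 in B and pDC. *TCF4*, the only pDC marker measured of 4, overlapped between pDC (0.71 to 1.78), B (0.55 to 1.09) and cDC2 (0.53 to 0.83). *SIRPA*, which encodes CD172, gave no signal well above background on the 17 arrays, those of cDC2 included. *ITGAM*, which encodes CD11b and is the other cDC2 marker measured, was -5.04 to -4.44 in cDC2 and -5.37 to -3.98 in B, against -2.28 to -1.35 in MP and -1.67 to -0.85 in MoDC, so no measured marker set cDC2 apart, and no marker of cultured MoDC was measured under a name.

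*FLT3* was highest in the conventional dendritic cells and lowest in B. It was 1.5, 1.3 and 1.26 on the 3 cDC2 arrays and 2.69 on the cDC1 array. It was -1.06, -1.24 and -0.16 in pDC. All 4 conventional dendritic cell arrays lay above the 13 others, of which the highest was pDC replicate 3.

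In MP *FLT3* was -1.71, -0.88 and -1.0. In MoDC it was -2.60, -2.98 and -1.85. The pDC and MP arrays overlapped, and every MoDC array lay below every array of both. In B it was -4.95, -4.0, -4.2 and -5.69, with no overlap with any other subset, and on B replicate 4 only 4 of 5 spots were well above background.

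**Figure D1:**
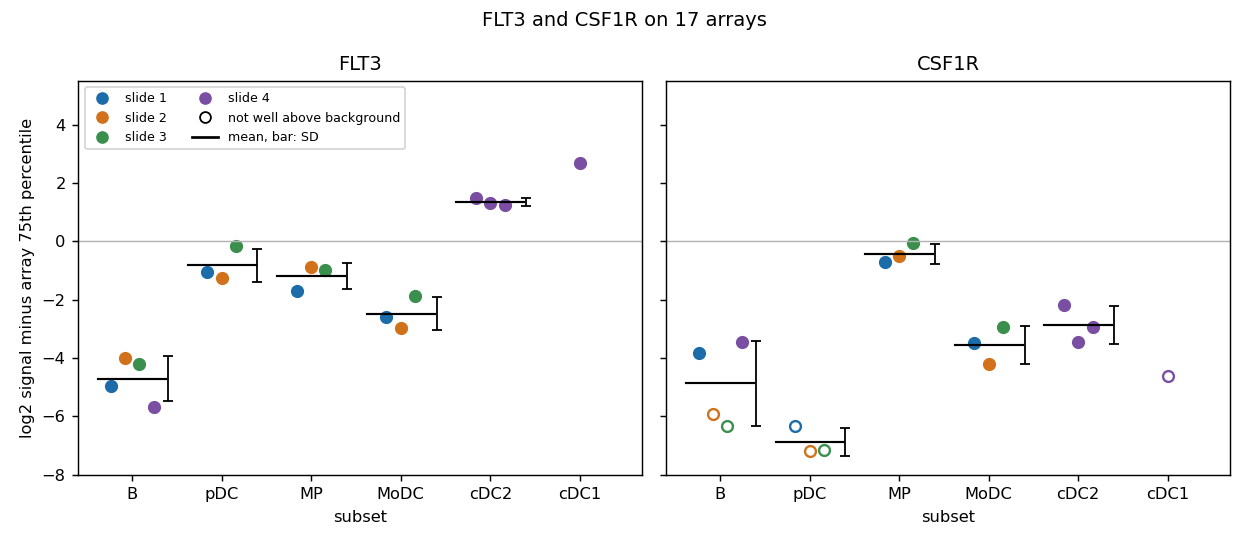
Level of *FLT3* (left) and *CSF1R* (right) on each array, by subset, as log2 signal minus the 75th percentile of the array; each point is 1 array, coloured by slide, open where the probe was not well above background, with the mean as a line and the SD as a bar. For *FLT3* the cDC2 arrays sit at 1.26 to 1.5 and the cDC1 array at 2.69, above all others, and for *CSF1R* the MP arrays sit at -0.71 to -0.07, above all others.

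The order of the subset means was cDC1 (2.69, n = 1), cDC2 (1.35 ± 0.13, SD, n = 3), pDC (-0.82 ± 0.58, n = 3), MP (-1.20 ± 0.45, n = 3), MoDC (-2.48 ± 0.57, n = 3) and B (-4.71 ± 0.77, n = 4). The neighbours pDC and MP did not differ beyond their spread. Their difference was 0.38 (SE 0.45, limma adjusted p = 0.620), and its 95% interval, -0.59 to 1.35, leaves room for a difference of more than 2-fold. The single cDC1 array entered no tested pair, and it was 1.33 above the mean of the cDC2 arrays, a difference without a replicate check.

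Pairs of the 5 replicated subsets were compared with limma, and a gene was called at an adjusted p under 0.05 and at least a 2-fold difference. *FLT3* was called in 9 of the 10 pairs, all except pDC against MP, where 25.9% of all genes tested were called. The widest difference was that between B and cDC2. cDC2 exceeded B 66.8-fold, as B minus cDC2 was -6.06 (SE 0.42, adjusted p = 6.61e-07). In that pair 23.1% of all genes were called, and 24 of the 11308 genes had a larger difference. Over the range of the 5 subset means, whichever pair it came from, 469 genes (4.15%) exceeded *FLT3*. pDC exceeded B 14.8-fold (B minus pDC -3.89, SE 0.42, adjusted p = 5.28e-05), in a pair where 9.21% of genes were called. MP exceeded B 11.4-fold (adjusted p = 2.29e-05), in a pair with 24.3% of genes called. MoDC exceeded B 4.69-fold (adjusted p = 0.000692), in a pair with 36.1% called, but after normexp background correction B minus MoDC was -0.72 and not called (adjusted p = 0.0804). Other scalings gave smaller folds over B, all called: cDC2 13.6-fold, pDC 3.87-fold and MP 3.18-fold with normexp, and 27.0-fold, 6.89-fold and 5.44-fold in the authors' series table. *FLT3* was lower in B than in every other replicated subset, at levels where it still gave a signal above background.

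Among the other subsets, *FLT3* was 4.51-fold higher in cDC2 than in pDC (adjusted p = 0.00319), in a pair with 20.2% of genes called. It was 5.86-fold higher in cDC2 than in MP (adjusted p = 0.00245), where 11.2% were called, and 14.2-fold higher in cDC2 than in MoDC (adjusted p = 2.41e-05), where 33.4% were called. After normexp the fold against MoDC was 8.28 and those against pDC and MP were 3.52 and 4.29, all called. The cDC2 arrays did not overlap with those of pDC, MP or MoDC. pDC exceeded MoDC 3.16-fold (pDC minus MoDC 1.66, SE 0.45, adjusted p = 0.0103), in a pair with 33% of genes called, but without pDC replicate 3 the difference was 1.33 and the adjusted p 0.0539. MP exceeded MoDC 2.43-fold (MP minus MoDC 1.28, SE 0.45), in a pair with 25.9% of genes called. The latter call sat at the threshold, with an adjusted p of 0.0479, and was lost in 10 of the 16 fits that left out 1 array. With slide as a block its adjusted p was 0.00869, and with the replicate number as a block 0.0194. Where no other setting is named, limma values come from the fit to all 17 arrays with p-values adjusted over 11308 genes.

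**Figure D2:**
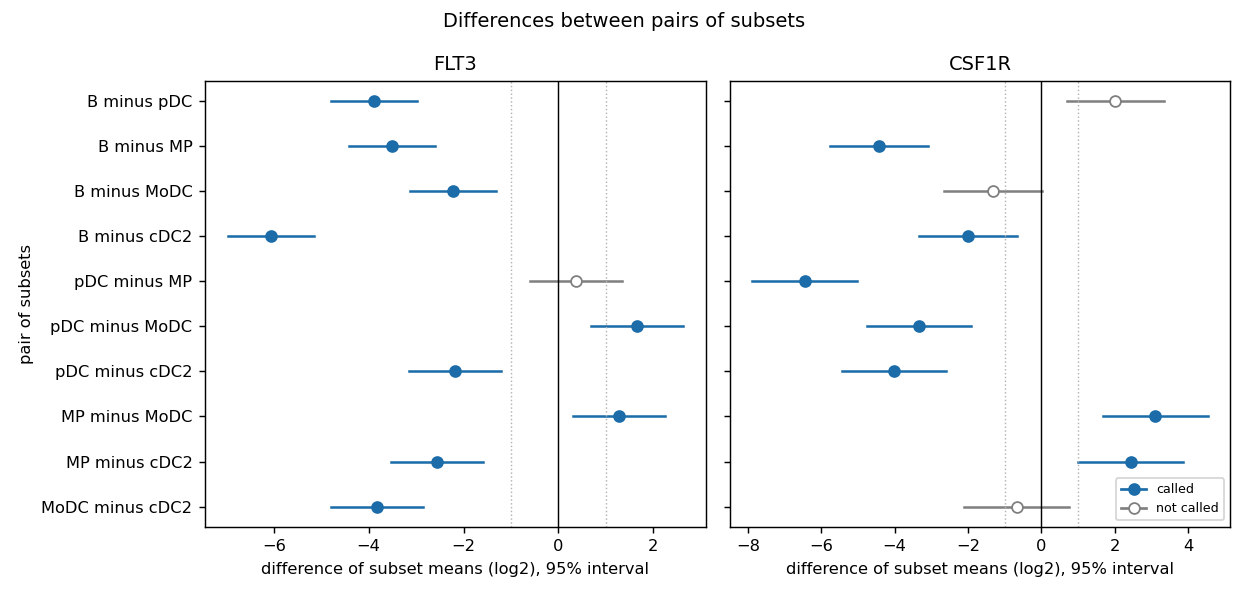
Difference of subset means on the log2 scale, for each of the 10 pairs of replicated subsets (vertical axis), for *FLT3* (left) and *CSF1R* (right); points are limma estimates, bars 95% intervals, filled points are called, and dotted lines mark 2-fold. *FLT3* is called in 9 pairs, with B minus cDC2 at -6.06 the farthest from 0, and *CSF1R* in 7, with pDC minus MP at -6.45 the farthest; for *CSF1R* the pDC values and those of 2 B arrays were not above background.

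The 4 arrays of cDC1 and cDC2 averaged 1.69 for *FLT3* (SD 0.68, n = 4) and the 13 others -2.49 (SD 1.75, n = 13). The difference of 4.17 had an exact two-sided permutation p of 0.000840, adjusted to 0.00168 over the 4 such tests made. Each of these tests relabels single arrays, and arrays of 1 subset are not independent members of a class of subsets. Their p-values thus do not measure the spread between subsets, and the groupings were chosen with earlier results of these data known. With cDC2 alone, leaving out the cDC1 array, the difference was 3.84 (exact permutation p = 0.00357, adjusted 0.00714). All cDC2 and cDC1 arrays lay on slide 4, whose only other array was B replicate 4. Slide 4 alone was read with version 10.10.1.1 of the software that reads the spots. On that slide the mean of cDC2 was 7.04 above B and cDC1 was 8.38 above it, and a test within slides has 5 relabellings and cannot give a p under 0.2.

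Markers of other cells moved with some of these levels. *CD3D*, *CD3E* and *CD28*, the 3 T cell markers measured of 5, summed to 16.4 to 38 times the 75th percentile on the pDC arrays, against 6.63 to 9.23 in B, 2.82 to 4.45 in cDC2, 0.772 to 2.42 in MP, 0.0872 to 0.183 in MoDC and 2.08 in cDC1. *CD28* was well above background on pDC replicate 2 (-5.02) and MP replicate 2 (-4.19) alone. *GNLY*, the only natural killer cell marker measured of 4, was 4.30 to 31.3 times the 75th percentile in pDC and at most 1.17 elsewhere. *HBB*, a globin of red cells and the only one measured of 2, was 0.141 to 0.867 times the 75th percentile in pDC, 0.136 to 1.34 in cDC2 and 1.77 in cDC1, and on the MP, MoDC and B arrays it was at most 0.0403. *CD14*, the only macrophage marker measured besides *CSF1R*, was 11.9 to 12.9 times the 75th percentile in cDC2 and 8.14 in cDC1, against 39.1 to 114 in MP, 58.4 to 107 in MoDC and 0.348 to 1.11 in B and pDC. *LTF*, the only neutrophil marker measured of 4, was 0.869 to 2.92 in MoDC and at most 0.505 elsewhere. Their part in the levels of *FLT3* and *CSF1R* was not tested, and on bulk arrays fewer cells of a type and less RNA per cell cannot be told apart.

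*CSF1R* was highest in MP and not measurable in pDC. On the 3 MP arrays it was -0.71, -0.51 and -0.07. On the cDC2 arrays it was -2.19, -3.46 and -2.95, and on the MoDC arrays -3.48, -4.22 and -2.92. All MP arrays lay above all 14 others, and cDC2 and MoDC overlapped. On the pDC arrays the measured values were -6.32, -7.19 and -7.14, none of them well above background. On the cDC1 array it was -4.61, with 2 of 5 spots well above background, and is counted as not well above it.

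The B arrays split. *CSF1R* was -3.81 on replicate 1 and -3.43 on replicate 4, well above background on each spot used, and -5.90 on replicate 2 and -6.31 on replicate 3, where no spot was. The SD of 1.45 in B (n = 4) was the widest of any subset for either receptor. In units of brightness the spots of replicates 1 and 4 read 29.6 to 62.7, and those of replicates 2 and 3 read 3.00 to 8.39. *KIT*, the sister receptor that binds stem cell factor, showed the same split in B, with -4.23 and -4.0 on replicates 1 and 4, both well above background, and -6.53 and -7.36 on replicates 2 and 3, neither above it. *CD14* was -0.80 and -1.19 on B replicates 1 and 4 and -1.52 and -1.14 on replicates 2 and 3. *ITGAM*, the gene of CD11b, was -3.98 and -4.11 against -4.86 and -5.37. Other genes ran the opposite way: *FLT3* was -4.95 and -5.69 against -4.0 and -4.2. *LTF* was -5.21 and -5.94, the latter not well above background, against -3.42 and -3.48. The share of spots well above background was 76.8% and 77.5% on replicates 1 and 4 and 70.0% and 72.5% on replicates 2 and 3. The part of these in the split of *CSF1R* was not tested, and the B arrays were kept as 1 group.

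The order of the measured means for *CSF1R* was MP (-0.43 ± 0.33, SD, n = 3), cDC2 (-2.86 ± 0.64, n = 3), MoDC (-3.54 ± 0.65, n = 3), cDC1 (-4.61, n = 1), B (-4.86 ± 1.45, n = 4) and pDC (-6.88 ± 0.49, n = 3). The neighbours cDC2 and MoDC did not differ beyond their spread (MoDC minus cDC2 -0.68, SE 0.67, limma adjusted p = 0.448, 95% interval -2.10 to 0.75). The last 3 places in the order hold arrays that were not above background, so they have no firm order among themselves.

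*CSF1R* was called in 7 of the 10 pairs, and the shares of all genes called in those pairs are the ones given for *FLT3*. MP was higher than every other replicated subset. MP exceeded MoDC 8.63-fold (MP minus MoDC 3.11, SE 0.67, adjusted p = 0.00321). B minus MP was -4.43 (SE 0.62, adjusted p = 9.28e-05), with only 2 of 4 B arrays above background, and with dim levels raised to the detection floor MP exceeded B 17.5-fold (adjusted p = 3.01e-05). MP exceeded cDC2 5.40-fold (MP minus cDC2 2.43, SE 0.67, adjusted p = 0.0294). After normexp the folds of MP over MoDC, B and cDC2 were 4.14, 4.59 and 3.17, all called. The call of MP against cDC2 is the least firm of these: it was lost in 5 of the 16 fits that left out 1 array, namely those without any 1 of the MP arrays and without cDC2 replicates 2 or 3.

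For pDC, where no array measured *CSF1R*, the fold is taken against a detection floor, the lowest signal well above background on each pDC array. This floor is not a strict limit, because a dim probe can lie above it, as *CSF1R* did on the cDC1 array (-4.61 against a floor of -4.72). Against the floor of the pDC arrays, *CSF1R* was 29.3-fold higher in MP than in pDC, 5.43-fold higher in cDC2 and 3.40-fold higher in MoDC. On the measured values the adjusted p was 5.71e-06, 0.000594 and 0.00117, and on those raised to the floor 1.23e-05, 0.00543 and 0.0214. These folds belong to this scaling, and after normexp background correction the calls of pDC against cDC2 (adjusted p = 0.0967) and against MoDC (0.335) were lost. The call of pDC against MP was kept after normexp and in the series table, but at measured differences of -2.46 (5.52-fold) and -3.97 (15.6-fold), both under the fold against the floor. In the series table pDC minus cDC2 was -1.83 and pDC minus MoDC -1.62. Against the dim value of the cDC1 array itself, MP was 18.2-fold, cDC2 3.37-fold and MoDC 2.11-fold higher, with no test. pDC thus gave no measurable *CSF1R* signal on arrays where *FLT3* was -1.24 to -0.16.

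B minus cDC2 was -2.0 for *CSF1R* (adjusted p = 0.0294) although B replicates 1 and 4 lay within or next to the range of the cDC2 arrays. That call was lost without B replicate 2 (adjusted p = 0.0885), B replicate 3 (0.0786), cDC2 replicate 1 (0.122) or cDC2 replicate 3 (0.0780), with slide as a random block (-1.67, adjusted p = 0.0775), after normexp (adjusted p = 0.236), and in the series table, where it fell under 2-fold at -0.99. B could not be set against pDC, where no array was above background: the measured values differed by 2.02 (adjusted p = 0.0567), those raised to the floor by 0.74 (adjusted p = 0.465), and the measured ones passed with slide as a random block (1.91, adjusted p = 0.0405) and without B replicate 2, B replicate 3 or MoDC replicate 3. B minus MoDC was -1.32 with an adjusted p of 0.106. Without B replicate 4 it was -1.80 (adjusted p = 0.0273), with the replicate number as a block it was also -1.80 (adjusted p = 0.0146), and after quantile normalization -1.74 (adjusted p = 0.0316). These are differences of measured values with B replicates 2 and 3 below detection, and with dim levels raised to the floor B minus MoDC was -1.02 (adjusted p = 0.130) and B minus cDC2 -1.70 (adjusted p = 0.0257).

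**Figure D3:**
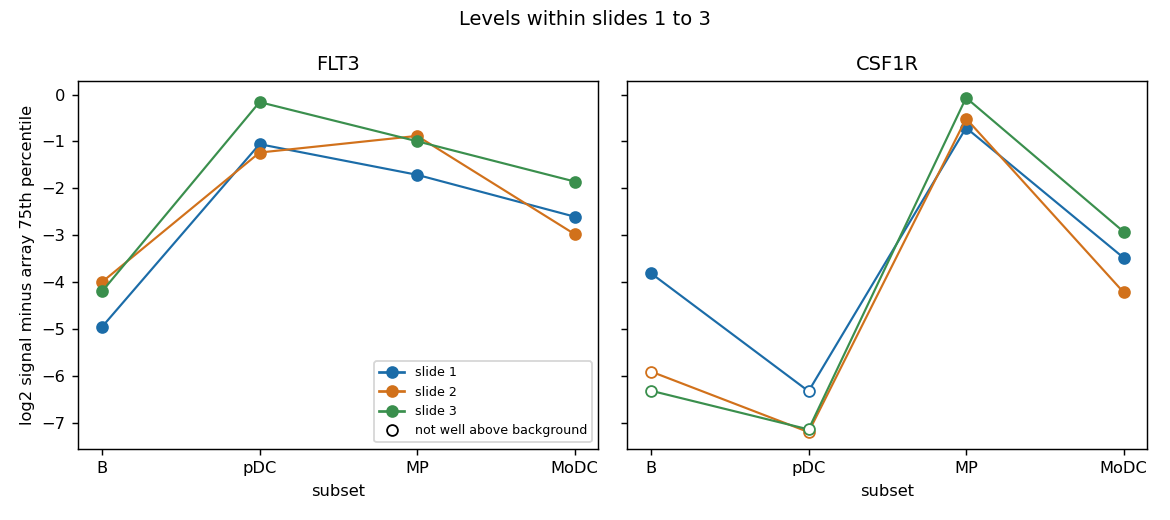
Level of *FLT3* (left) and *CSF1R* (right), as log2 signal minus the 75th percentile of the array, in the 4 subsets that share slides 1, 2 and 3; each line joins the 4 arrays of 1 slide and open points were not well above background. On each slide MP has the highest *CSF1R* and B the lowest *FLT3*, while pDC and MP change places for *FLT3* on slide 2.

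Slides 1, 2 and 3 each carried 1 array of B, pDC, MP and MoDC, so those subsets could be compared within slides. For *FLT3*, pDC exceeded MoDC by 1.55 to 1.74 and MP exceeded MoDC by 0.86 to 2.09, on 3 of 3 slides each. pDC exceeded MP on 2 of 3 slides, with differences from -0.35 to 0.83. B minus MP was -3.24 to -3.11 on these slides. For *CSF1R*, MP exceeded MoDC by 2.77 to 3.70 and exceeded pDC, raised to the detection floor, by 4.29 to 5.30. MoDC exceeded B on 3 of 3 slides, by 0.33 on slide 1 and more on the others, where B was not above background.

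The 4 cDC arrays were tied to the other slides only through B replicate 4. With slide as a block, *FLT3* was called in the same 9 pairs, but its differences between cDC2 and pDC, MP or MoDC then rested on that array and widened: pDC minus cDC2 went from -2.17 to -3.48, MP minus cDC2 from -2.55 to -3.86 and MoDC minus cDC2 from -3.83 to -5.14. The block left fewer calls over all genes in the pairs with cDC2: it called 0.849% of genes in MP against cDC2, 3.76% in pDC against cDC2, 8.28% in B against cDC2 and 8.3% in MoDC against cDC2. In the pairs on shared slides it called 10.3% in B against pDC, 26.2% in B against MP, 28.4% in pDC against MP, 30.2% in MP against MoDC, 36.8% in pDC against MoDC and 38.5% in B against MoDC. For *CSF1R* the same fit called 5 pairs. Calls were lost for MP minus cDC2 (4.34, adjusted p = 0.0585), pDC minus cDC2 (-2.11, adjusted p = 0.324) and B minus cDC2 (-0.57, adjusted p = 0.785), and B minus MoDC was gained (-1.80, adjusted p = 0.0191). The difference MoDC minus cDC2 turned from -0.68 to 1.23, not called in either fit. Within slide 4 the cDC2 mean was 0.57 above B replicate 4, which is a B array with *CSF1R* signal. The *CSF1R* estimate for cDC2 lay between those of MP and B in both fits, but with slide as a block it was set apart from neither. Its calls and its order against MoDC depended on how the slide was treated, while the calls of cDC2 for *FLT3* did not.

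Across subsets, the 6 arrays of MP and MoDC averaged -1.98 for *CSF1R* (SD 1.76, n = 6) and the 11 others -4.85 (SD 1.79, n = 11). The difference of the measured values was 2.86 (exact two-sided permutation p = 0.00768, adjusted 0.00768). As for *FLT3*, this test takes arrays and not subsets as its units, for a grouping chosen with earlier results known. Because 6 of the 11 others were not above background, the mean of -4.85 is not a measured level, and with dim levels raised to the floor the difference was 2.32 (adjusted p = 0.00590). The groups overlapped, because MoDC lay among the cDC2 arrays and next to the B arrays with signal. Within slides 1 to 3, which leaves only B and pDC to compare with, the measured difference was 4.13 and that with dim levels raised to the floor 3.14 (exact permutation p = 0.00926, adjusted 0.0278, for both). After normexp background correction the difference over all arrays was 0.89 and did not pass (adjusted p = 0.0907).

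The receptors were then combined as the difference *FLT3* minus *CSF1R* on each array, which is compared only between arrays, because the probes have no common scale. It was -1.0, -0.37 and -0.93 in MP and 0.88, 1.24 and 1.07 in MoDC. It was 3.69, 4.76 and 4.21 in cDC2 and 7.30 in cDC1. In pDC it was 5.26, 5.96 and 6.97. The macrophages, the cultured cells and the blood dendritic cells thus fell into separate ranges without overlap, with MP lowest, MoDC next and the dendritic cells from blood above both.

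For pDC and cDC1 the difference contains a *CSF1R* value that was not above background. Set against the higher of that value and the lowest signal above background on the array, *FLT3* minus *CSF1R* was still 3.95, 4.30 and 5.21 in pDC, within or above the range of cDC2. The B arrays split as they did in *CSF1R*, with -1.14 and -2.25 on replicates 1 and 4 and 1.91 and 2.11 on replicates 2 and 3. *FLT3* enters this split too, being lower on replicates 1 and 4 (-4.95 and -5.69) than on replicates 2 and 3 (-4.0 and -4.2).

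**Figure D4:**
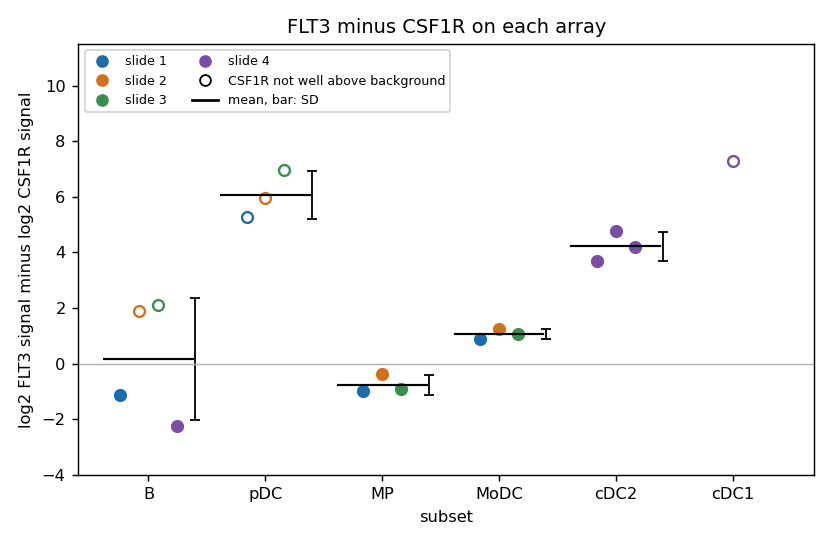
Difference between the log2 signals of *FLT3* and *CSF1R* on each array (vertical axis), by subset; each point is 1 array, coloured by slide, open where *CSF1R* was not well above background, with the mean as a line and the SD as a bar. MP lies at -1.0 to -0.37, MoDC at 0.88 to 1.24, cDC2 at 3.69 to 4.76, pDC at 5.26 to 6.97 and cDC1 at 7.30, while B spreads from -2.25 to 2.11.

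The mean difference was 4.99 over the 4 arrays of cDC1 and cDC2 (SD 1.60, n = 4) and 0.15 over the 6 of MP and MoDC (SD 1.03, n = 6). The gap of 4.84 had an exact two-sided permutation p of 0.00476, the smallest this design allows, adjusted to 0.00635. The limits given for the *FLT3* test, arrays as units and groupings chosen with earlier results known, hold for all tests of this difference. Without the cDC1 array the gap was 4.07 (exact permutation p = 0.0119, adjusted 0.0119). These groups lie on different slides, so slide and subset cannot be told apart in this comparison. With pDC added to the dendritic cells, the mean was 5.45 (SD 1.36, n = 7) and the gap 5.30 (exact permutation p = 0.000583, the smallest this design allows, adjusted 0.00168). With *CSF1R* raised to the floor this gap was 4.62. The pDC arrays do share slides with MP and MoDC. On slides 1 to 3, *FLT3* minus *CSF1R* with *CSF1R* raised to the floor was 4.67 to 6.14 higher in pDC than in MP, and 3.06 to 4.14 higher than in MoDC. The test within slides, which has no cDC array because slide 4 holds no MP or MoDC, gave a measured gap of 5.92 between pDC and the others (exact permutation p = 0.0370, adjusted 0.0556), and 27 relabellings allow no smaller p than that.

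Of the 83 other genes listed around these receptors, 12 could be found on the array by symbol and 9 passed the filter. The remaining genes of the list were not analysed here. Of the 9, 8 were called in at least 1 pair, as were 65.1% of all genes tested. With slide as a block, 6 of the 9 were called in at least 1 pair, against 62.1% of all genes. In the pairs with cDC2 the block kept 6 of the 13 calls, and in the pairs on shared slides 17 of 18. The share of the 9 called in a pair ran from 11.1% (B against pDC, with 9.21% of all genes) to 55.6% (B against MoDC, with 36.1%, pDC against MoDC, with 33%, and MoDC against cDC2, with 33.4%).

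*FLT3LG*, which encodes the ligand of FLT3, gave a signal well above background on all 17 arrays, from 0.19 to 1.91. It was 1.80, 1.91 and 1.39 in pDC, 1.06, 0.88, 0.65 and 1.07 in B, 1.05, 1.15 and 1.06 in MP, 1.15, 1.23 and 1.02 in cDC2, 1.02, 0.19 and 0.50 in MoDC and 0.45 in cDC1. The pDC arrays lay above all others. It was called in 1 pair, pDC against MoDC, at 2.19-fold (limma adjusted p = 0.00396). The subset order of the ligand was not that of its receptor: the cDC1 array, highest for *FLT3*, was below the cDC2 arrays for *FLT3LG*. *KITLG*, the KIT ligand, was not above background on any array. *CSF2*, the gene of GM-CSF, was above background on MoDC replicate 3 alone, at -3.15, and *KIT* on B replicates 1 and 4 and on pDC replicate 1 (-3.16).

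**Figure D5:**
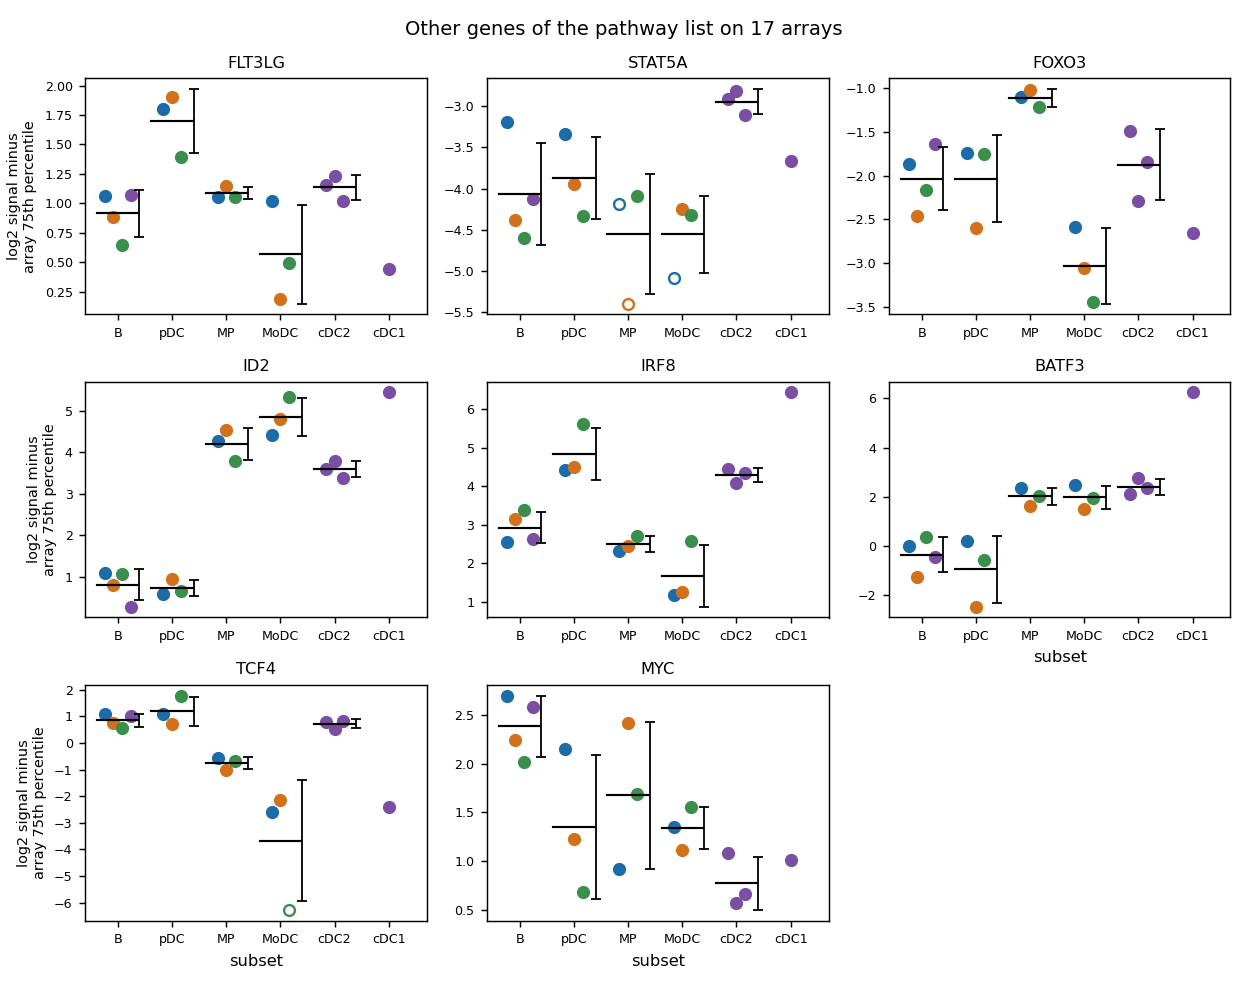
Level of 8 other genes of the receptor list that passed the filter, as log2 signal minus the 75th percentile of the array, by subset; each point is 1 array, coloured by slide (1 blue, 2 orange, 3 green, 4 purple), open where not well above background, with the mean as a line and the SD as a bar, and each panel has its own vertical scale. *IRF8* is high in pDC, cDC2 and cDC1, *ID2* is low in B and pDC, and of these 8 panels that for *FLT3LG* spans the narrowest range.

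Among transcription factors of dendritic cell development, *IRF8*, needed for cDC1 development and abundant in pDC, was 4.42, 4.50 and 5.62 in pDC, 4.44, 4.10 and 4.33 in cDC2 and 6.44 in cDC1. It was 2.54 to 3.38 in B, 2.33 to 2.72 in MP and 1.17 to 2.59 in MoDC. It was called in 7 pairs. It was higher in pDC than in MP 5.09-fold (limma adjusted p = 0.000579) and than in MoDC 9.05-fold (adjusted p = 3.02e-05), and higher in cDC2 than in MP 3.46-fold (adjusted p = 0.0124). The latter call was lost with slide as a block (adjusted p = 0.0585), where MP minus cDC2 was -2.19 against -1.79 without it. Its pDC and cDC2 arrays overlapped and did not differ beyond their spread (adjusted p = 0.375).

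*ID2*, an inhibitor of E proteins with a role in conventional dendritic cells, was 0.27 to 1.09 in B and 0.57 to 0.94 in pDC, and 3.39 to 5.44 on all other arrays. It was called in 7 pairs, with cDC2 7.32-fold and MP 11.1-fold above pDC (adjusted p = 2.59e-05 and 2.07e-06). Of the 7, MoDC against cDC2 was lost with slide as a block (adjusted p = 0.544), at a difference of 0.55 against 1.26 without it. *BATF3*, a factor needed by cDC1, was 6.24 in cDC1 and at most 2.75 elsewhere. It was called in 6 pairs, all of them B or pDC against MP, MoDC or cDC2, and was 10.2-fold lower in pDC than in cDC2 (adjusted p = 0.000731). *TCF4*, the E protein that directs pDC development, was 0.71 to 1.78 in pDC, 0.55 to 1.09 in B and 0.53 to 0.83 in cDC2. It was -2.41 in cDC1, the subset highest for *FLT3*, and was called in 4 pairs, each with MoDC lower. Of these, MoDC against cDC2 was lost with slide as a block (adjusted p = 0.0794), at a difference of -4.18 against -4.39 without it. *TCF4* has further limits. On MoDC replicate 3 the signal of *TCF4* was not well above background.

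Among the signalling genes, *STAT5A*, a transcription factor activated by cytokine receptors, was -2.91, -2.81 and -3.11 in cDC2. It was -4.09 on the 1 MP array of 3 that measured it and -4.24 and -4.32 on the 2 such MoDC arrays. The limma calls of cDC2 over MP and MoDC also used the dim values of the other arrays, so no size is given for them. *FOXO3*, a factor held in check by AKT signalling, was lower in MoDC (-3.45 to -2.59) than in MP (3.78-fold, adjusted p = 0.000832) and in cDC2 (2.23-fold, adjusted p = 0.0166). *MYC* was higher in B than in MoDC (2.06-fold, adjusted p = 0.0431) and than in cDC2 (3.06-fold, adjusted p = 0.00664). With slide as a block the calls against cDC2 were lost for *STAT5A* (adjusted p = 0.414 in MP and 0.198 in MoDC), *FOXO3* (0.499) and *MYC* (0.0999). The *FOXO3* difference MoDC minus cDC2 went from -1.16 to -0.63, and the *MYC* difference B minus cDC2 from 1.61 to 1.81. The call of *MYC* in B against MoDC was lost as well (0.0861), while *FOXO3* in B against MP was gained (adjusted p = 0.0212). These latter calls, of *MYC* in B against MoDC and *FOXO3* in B against MP, changed the same way with the replicate number as a block.

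Across the 17 arrays, the level of *FLT3* and that of *CSF1R* were nearly unrelated, with a Pearson r of 0.141. Such correlations are given as descriptions, since arrays of 1 subset or slide share their source. The genes most like *FLT3* were 2 without a symbol, identified by the probes A_70_P045331 (r = 0.921) and BL_OCA_F000819 (r = 0.920). Of the genes with a symbol, 4 of the 5 most like it were *ACVR2B*, an activin receptor (r = 0.852), *SFN*, a 14-3-3 protein (0.832), *TNNC2*, a troponin (0.754), and *HBB* (0.716). Over the 12 arrays of slides 1 to 3 alone these values fell to 0.661 for *ACVR2B*, 0.702 for *SFN*, 0.160 for *TNNC2* and 0.399 for *HBB*.

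More genes resembled *CSF1R*. A correlation over 0.8 was reached by 203 genes with *CSF1R* and by 48 with *FLT3*. The closest 2 had no symbol, the probes A_70_P038701 (r = 0.950) and BL_OTH_F001567 (r = 0.945). The 5 closest with a symbol were *ACVRL1*, a receptor of the TGF-β family (0.926), *LYZ*, lysozyme (0.885), *AHR*, the aryl hydrocarbon receptor (0.872), *SLC11A1*, a metal transporter of phagocytes (0.855), and *RARA*, a retinoic acid receptor (0.823). *LYZ* averaged 7.49 in MP, 5.40 in cDC2, 4.64 in cDC1, 3.01 in MoDC, 1.03 in B and -0.19 in pDC. Over the 12 arrays of slides 1 to 3 the values were 0.943 for *ACVRL1*, 0.937 for *LYZ*, 0.941 for *AHR*, 0.888 for *SLC11A1* and 0.911 for *RARA*, none of them lower than over all 17 arrays.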

How the data were processed

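RNA of 17 samples from 6 subsets was hybridised to a custom ovine Agilent array, 1 sample per array. The authors read the spots with Feature Extraction (per the file headers, version 10.7.3.1 on 12 arrays and 10.10.1.1 on 5). The 5 are the arrays of slide 4, B replicate 4 and all of cDC2 and cDC1, so version and slide cannot be told apart. Per spot, the deposited files give a background-corrected intensity, the median intensity of the spot and its background, and flags of 0 or 1. The deposited series table holds the authors' log2 values and served only as an alternative. Its unnamed rows were matched to probes by alphabetical order (r from 0.969 to 0.988 with the same array), and 16 of its 17 columns correlated best with their own array.

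Of 15744 spots per array, 536 controls were left out, and 273 spots with an outlier flag over all arrays, among them 1 *CSF1R* spot on B replicate 1 and 1 on pDC replicate 1. No spot was saturated. A probe stayed in where 1 or more subsets had, on all their arrays, over 50% of its spots flagged as well above background, and 1 probe per gene, the one with the highest sum, was tested, which gave 11308 genes, 271 of them with a symbol from the files or a RefSeq gene table of sheep. Differences were fitted with limma 3.58.1 in R 4.3.3, tested on simulated data, with Benjamini-Hochberg adjustment within each pair. Exact two-sided permutation tests were run in Python 3.11.15. The precision is limited by the number of arrays. Slide is the first part of the array identifier. Replicate numbers 1 to 3 of B, pDC, MP and MoDC name the slide, and the deviations of same-numbered arrays from their subset means correlated at 0.101 to 0.561 in 18 of 18 such pairs, so these numbers pair the arrays. The limma fit and permutation tests have no block, and values with slide or replicate number as a block are given where these change a call of a receptor or a named gene. In the 12 pairs with cDC2, on another slide, r was at most 0.09. Named genes were both receptors, the receptor list, and the closest 5 genes with a symbol and 2 of any kind, and 1 gene of the list and 1 of the closest genes are not reported here. The members, lists and groupings were chosen with earlier results of these data known.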

Additional observations from a re-analysis of the deposited data

How the results depend on the processing

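*FLT3* was called in 7 to 9 pairs under all alternatives, and *CSF1R* in 7 of 10 by default, in 4 after normexp background correction with an offset of 50, and in 5 to 8 otherwise. Leaving out 1 array at a time gave 8 to 9 pairs for *FLT3*, 5 to 8 for *CSF1R* and 7 to 8 genes of the receptor list, which fell to 6 with slide as a fixed block. After normexp, *CSF1R* in MP and MoDC minus all other arrays was 0.89 (exact permutation p = 0.0907). With slide as a fixed block, arrays count only where a slide holds both sides: *FLT3* in cDC1 and cDC2 was then set against B replicate 4 alone, at 7.38 (exact permutation p = 0.2, the smallest possible with 5 relabellings), and for *FLT3* minus *CSF1R* pDC alone was set against MP and MoDC, at 5.92 (adjusted p = 0.0556), or 4.34 with dim levels raised to the floor. *CSF1R* in MoDC minus cDC2 was reversed there, at 1.23. *FLT3* minus *CSF1R* in cDC1 and cDC2 against MP and MoDC could not be fitted with slide as a block. With the replicate number as a block, *FLT3* was called in 9 pairs and *CSF1R* in 8, the added one being B against MoDC, and the block changed no other call of either receptor. Of 280 differences recomputed for each receptor, 265 kept direction and side of the threshold for *FLT3* and 254 for *CSF1R*. *FLT3* lost its call in B against MoDC after normexp, and in MP minus MoDC after normexp, after quantile normalization (adjusted p = 0.152) and without the filter (0.0628). Alternatives chosen after seeing the data, which kept outlier spots, raised dim levels to the detection floor, or used the single-spot *FLT3* probe, changed no count. Signals near background limit *CSF1R* in B, pDC and cDC1. The cause of the changes was not tested.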
